A study of Anguilla anguilla with 3 samples.

Results

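The comparison is between the ovary of a post-spawning matured European eel (Anguilla anguilla) and that of a prepubertal silver eel, over all genes of the deposited table. Its members were all 45974 rows with a gene identifier out of 45974 in the table, and its samples were 2 of the 3 libraries of the study. The matured eel had spawned before sampling and came from the lake that also gave the yellow eel, in spring. The silver eel, which is at the stage of the seaward migrant before puberty, came from another lake in December. The yellow eel, the resident growing stage, is given beside them as a further point and enters no comparison. Each library was made from mRNA of 3 pooled parts of the gonad of 1 animal, so stage, lake, season and individual cannot be told apart, and how the matured eel was brought to spawning is not analysed here. A name is that of the most similar known protein, and several rows can share one.

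Eel ovaries hold oocytes, each wrapped in granulosa and theca cells that make steroid hormones, within a stroma of connective tissue, vessels and immune cells. Before spawning the oocyte stores maternal messengers, yolk and lipid, builds an egg coat of zona pellucida glycoproteins, and then resumes meiosis under progestins before it leaves its follicle. After spawning the emptied follicles remain, and in fishes they are taken apart and invaded by phagocytes while unovulated oocytes stay behind.

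The matured library held 30137882 reads and the silver library 41426808, and 36622 and 37329 rows had reads. Levels are given as CPM, in which every library is brought to one size and corrected for its composition. A row was called higher or lower in the matured ovary when its ratio reached 4-fold after 1 CPM was added on both sides. Only rows that reached 10 CPM in one of the libraries were tested. Folds of single rows are plain ratios of CPM with an exact binomial 95% interval. With 1 eel a stage there is no replicate check and no test, and the intervals cover counting error only. The marker genes of oocytes were present in all libraries, with 29 rows that summed to 39159 CPM in the matured, 47031 in the silver and 58260 in the yellow library and none of them at 0. The tissue label therefore holds against its defining markers. In bulk tissue fewer cells of a type and less RNA per cell cannot be told apart.

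More rows were lower than higher after spawning. Of 12573 tested rows, 281 (2.23%) were called higher and 579 (4.61%) lower, and 68.6% stayed within 2-fold. The shares called higher and lower are the background for the counts of each list below. The split depends on the scaling: higher rows made up 32.7% of the calls here, against 57.6% (444 higher, 327 lower) with library totals alone and 57.7% (433 higher, 318 lower) with the authors' RPKM values. Library totals move the median log2 ratio of all 24559 rows with at least 1 CPM from -0.02 by 0.29 to 0.27, so the directions below are relative to that median. A row lower by less than about 5-fold leaves the calls under that scaling.

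The log2 ratio varied with the level of the row. The call itself ties the matured and silver levels of a called row to its direction, so these are given as a description. The higher rows had a median of 22.9 CPM in the matured and 2.62 CPM in the silver library, with 2.33 CPM in the yellow library. For the lower rows the medians were 9.42 CPM in the matured, 60.7 in the silver and 20.3 in the yellow library. Across abundance the median log2 ratio was 0.19 at an average of 1 to 3 CPM, -0.06 at 10 to 30 CPM, -0.53 at 100 to 300 CPM and -0.77 at 300 to 1000 CPM. Of the 305 rows in the last of these ranges 1 was higher and 31 were lower. The share called lower was 3.70% of the tested rows at 10 to 30 CPM, 4.08% at 30 to 100 CPM, 5.73% at 100 to 300 CPM and 10.2% at 300 to 1000 CPM. At 3 to 10 CPM only 1178 of 6707 rows were tested, as a row there needs 10 CPM in one library. That filter keeps unequal rows, so the 7.05% called lower in this range cannot be set beside the other shares. The same limit applies to gene lists made up largely of such low rows, whose shares of calls are a description only. With the median over abundance subtracted, an alternative chosen after seeing the data, 324 rows were higher and 396 lower.

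**Figure D1:**
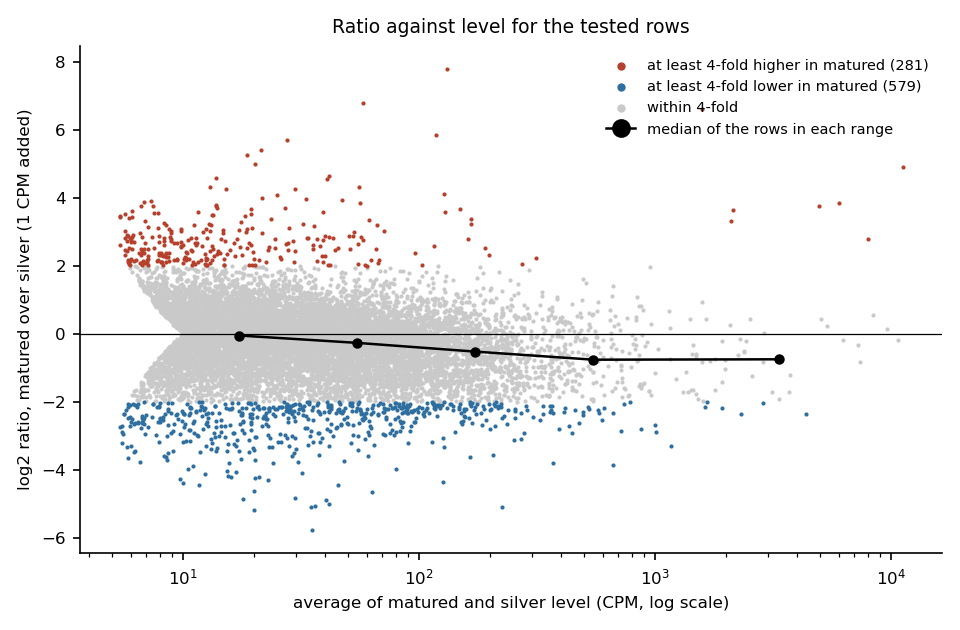
Each point is a tested row, placed by its average level in both libraries (CPM, log scale) and its log2 ratio of matured over silver ovary after 1 CPM was added. Red marks the 281 rows at least 4-fold higher and blue the 579 at least 4-fold lower in the matured ovary, and the black line joins the medians of ranges of level, which run down to -0.77 at 300 to 1000 CPM. With library totals alone all points move up and the calls split into 444 higher and 327 lower.

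A small set of very abundant rows without a name ran against that trend. Of 67 rows over 1000 CPM on average, 7 were higher, and 6 of these have no protein name. Together these 6 took 7.35% of the reads of the matured library, against 0.447% of the silver and 0.572% of the yellow library. The first, g38355, a transcript of 195 bases, stood at 21729 CPM in matured, 725 in silver and 1524 in yellow ovary, a 29.96-fold difference (95% interval 29.6 to 30.3). Per base of transcript it was the most abundant row of the matured ovary, at 111430.5 scaled RPKM (CPM per kilobase), while g45425 led the silver ovary, at 41134 scaled RPKM in the matured and 72941 in the silver library. The rows g43701 and g43702, chosen like the next 3 after their values were seen, stood at 11282 CPM in matured and 781 in silver ovary and at 13952 CPM in matured and 2027 in silver ovary.

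The other 3 carry the consecutive identifiers g43894, g43895 and g43896. Of these g43895 is described as cytochrome b, the subunit of respiratory complex III that the mitochondrial genome encodes, and it stood at 3976 CPM in matured, 316 in silver and 112 in yellow ovary. Its neighbours in the numbering were 9.95-fold (g43894, 95% interval 9.78 to 10.1) and 13.6-fold higher (g43896, 13.4 to 13.8). The nuclear genes of oxidative phosphorylation did not share this: of 96 tested, 0 were higher and 2 lower, with a median log2 ratio of -0.07 that becomes 0.27 with library totals, beside -0.02 and 0.27 for all rows under the same scalings. The 2 lower ones were small subunits of cytochrome c oxidase, cox8b (g8392), at 8.698 CPM in matured and 151 in silver ovary, and cx7a2 (g2510), at 13.5 CPM in matured and 60.7 in silver ovary. The mitochondrial ribosomal proteins, which translate the mitochondrial messengers, had a median of -0.48, with 0 of 72 higher and 2 lower.

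Among the 9 abundant rows that were lower were genes of the stored maternal set. They included b4 (g1568), the linker histone of oocytes in frogs, at 1122 CPM in matured, 4602 in silver and 1853 in yellow ovary, and b915 (g17814), described as a maternal protein, at 239.8 CPM in matured, 1788 in silver and 886 in yellow ovary. Ferritin frim (g8785), which stores iron, stood at 661 CPM in matured, 2673 in silver and 1149.9 in yellow ovary. In all of these the matured library was the lowest and the silver library the highest. The 3 rows were chosen after their values were seen.

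**Figure D2:**
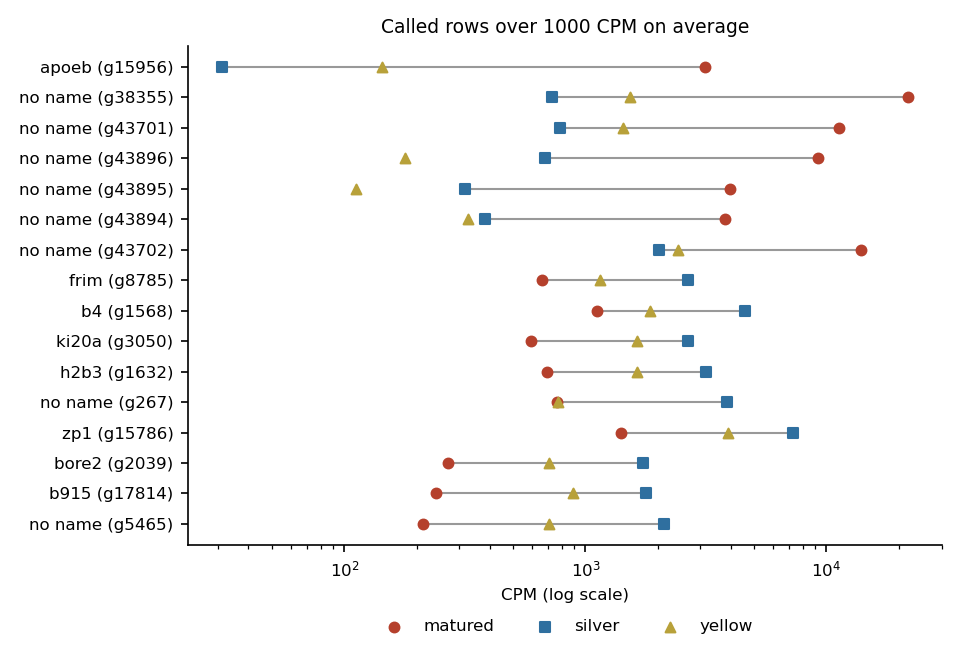
Levels (CPM, log scale) of the 16 called rows over 1000 CPM on average, in the matured (circle), silver (square) and yellow (triangle) library, with a line between matured and silver. The 7 higher rows, led by g38355 at 21729 CPM in the matured library, include 6 without a name, and among the 9 lower rows the yellow library lies between the others or beside the matured one.

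The named rows at either end of the ratios included asb11, pthd1 and tri39. The Socs-box protein asb11 (g11649), a ubiquitin ligase adaptor, stood at 29.8 CPM in matured, 0.6098 in silver and 0.1503 in yellow ovary, and the patched-domain protein pthd1 (g1786), a multipass membrane protein, at 57.4 CPM in matured, 2.07 in silver and 2.03 in yellow ovary. Both were low in the silver and yellow ovary alike. At the other end tri39 (g30740), of the TRIM ubiquitin ligases, stood at 1.705 CPM in matured, 79.3 in silver and 9.25 in yellow ovary. Of 23 tested TRIM genes, tri39 included, 0 were higher and 2 lower. Their median of -0.08 becomes 0.23 with library totals, beside 0.27 for all rows. The plot of the leading rows shows that the yellow library sided with neither of the others throughout.

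**Figure D3:**
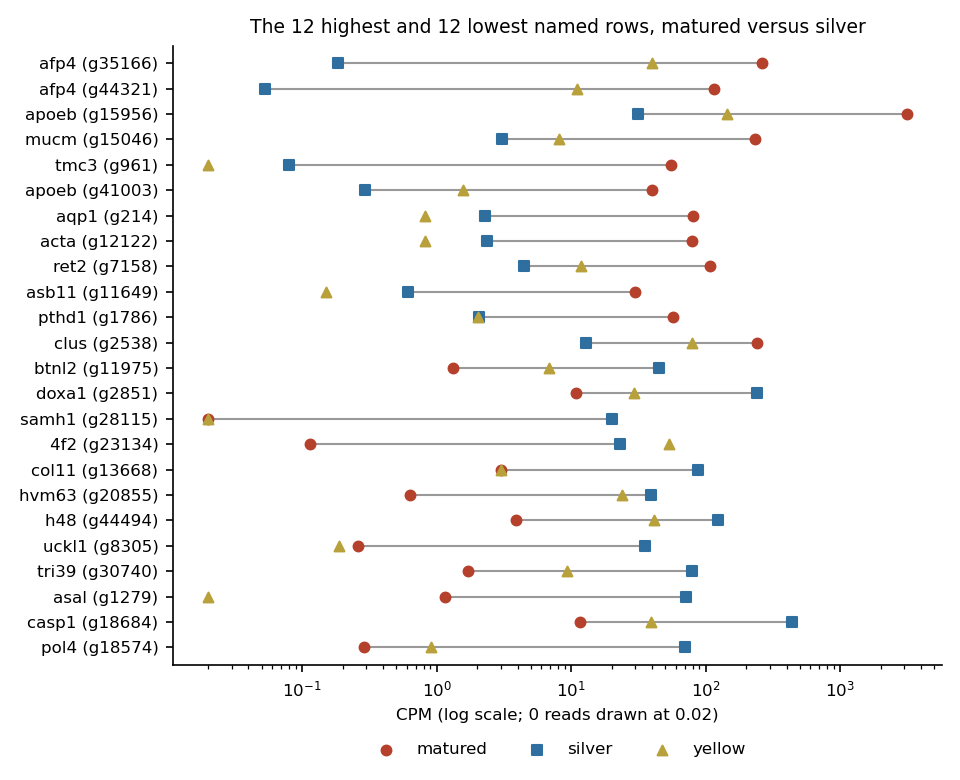
Levels (CPM, log scale) of the 12 named rows with the largest and the 12 with the smallest log2 ratio, in the matured (circle), silver (square) and yellow (triangle) library. Rows with 0 reads are drawn at 0.02 CPM, as for tmc3 in the yellow library and samh1 in the matured and yellow libraries.

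Genes that carry lipids and retinoids were among those that differed most. Of 26 tested apolipoprotein and lipoprotein uptake genes 7 were higher and 0 lower, with a median log2 ratio of 0.49. Here and below a list's median covers its members that average 1 CPM or more. A second apolipoprotein E row, apoeb (g41003), stood at 39.9 CPM in matured, 0.292 in silver and 1.58 in yellow ovary, 137-fold higher (95% interval 76.2 to 275), but its model spans only 172 bases. The unnamed row g37136, described as a type-4 ice-structuring protein like the afp4 rows, had 42.9 CPM in the matured, 0.0265 in the silver and 4.74 in the yellow library, and its silver level is 1 read. Both were high in the matured ovary, low in the silver ovary and between them in the yellow ovary. Markers of hepatocytes, which make plasma lipoproteins, were low: they summed to 9.25 CPM in the matured, 12.6 in the silver and 6.01 in the yellow library, and albumin matched no row.

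Intracellular retinol carriers moved both ways. The gene of cellular retinol-binding protein 2, ret2 (g7158), stood at 107 CPM in matured, 4.48 in silver and 11.8 in yellow ovary, a difference of 23.9-fold (95% interval 20.5 to 28.1). Its relative ret1 (g7159) had 12.1 CPM in the matured, 0.0795 in the silver and 0.226 in the yellow library. Against these, ret7 (g21211) was 11.2-fold lower, at 2.49 CPM in matured and 27.8 in silver ovary. The retinoic acid receptor rarb (g23582), a nuclear receptor that retinoic acid activates, was also lower, at 18.4 CPM in matured, 94.9 in silver and 90.2 in yellow ovary. Of 5 tested retinoid carriers, a list chosen after values were seen, 2 were higher and 1 lower.

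Lipid handling inside cells also differed by gene. The fatty acid-binding proteins, small carriers of fatty acids, split into fabp4 (g3192), at 219 CPM in matured, 1527 in silver and 394 in yellow ovary, and fabpi (g17208), at 85.4 CPM in matured and 360.2 in silver ovary, which were lower, and fabph (g8299), at 13.7 CPM in matured and 2.39 in silver ovary, which was higher. The lipase inhibitor angiopoietin-like 4 had 2 higher rows, and angl4 (g1879) stood at 89.7 CPM in matured, 4.91 in silver and 8.91 in yellow ovary, an 18.3-fold difference (95% interval 15.8 to 21.3). Its known regulator pparg (g9), the nuclear receptor of adipocyte differentiation, was at 13.9 CPM in matured and 1.86 in silver ovary. The cholesterol exporter abca1 was called in both directions, with g4770 at 43.6 CPM in matured and 5.52 in silver ovary and g1133 at 9.07 CPM in matured and 46.2 in silver ovary, and g0s2 (g10664), an inhibitor of triglyceride lipase, was at 16.6 CPM in matured and 1.17 in silver ovary. A second g0s2 row (g11483) ran the other way, within 4-fold, at 5.98 CPM in matured and 26.2 in silver ovary. The genes abca1 and g0s2 were chosen after their values were seen. Cholesterol synthesis itself had 0 of 20 tested genes called. Its median of -0.39 becomes 0.15 with the authors' RPKM values, beside 0.29 for all rows. Adipocyte markers summed to 11.9 CPM in the matured and 15.6 CPM in the silver library.

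Steroid-making genes differed at single steps. All 3 rows named for the 17-alpha-hydroxylase were higher in the matured ovary, and 5-alpha-reductase s5a1 was lower, while the other 12 tested members were not called, and the list's median was 0.32. Per base of transcript, the largest 17-alpha-hydroxylase model, cp17a (g22995), reached 73.8 scaled RPKM in the matured library, 7.602 in the silver and 0.6799 in the yellow library. The side-chain cleavage enzyme cp11a (g4682), which makes pregnenolone from cholesterol, reached 31.2 in the matured, 16.95 in the silver and 5.204 in the yellow library on the same scale. For the 3-beta-hydroxysteroid dehydrogenase 3bhs (g10190), which forms progesterone, the values were 32.1 in the matured, 23.9 in the silver and 42.6 in the yellow library. Per base, cp17a was thus the lowest of these 3 rows in the silver and yellow libraries and the highest in the matured library. Aromatase, which turns androgens into oestrogens, was low, with cp19a (g9349) at 0.954 CPM in matured and 1.43 in silver ovary, under the minimum for a call. No row matched star, the carrier that brings cholesterol into mitochondria.

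Receptors of these hormones moved in part. Of 15 tested nuclear receptors in the list 3 were higher and 1 lower, with a median of 0.37. That median becomes -0.26 over members averaging 10 CPM or more, beside -0.22 for all rows at that level. Besides the progesterone receptor the higher ones were pparg, above, and nr5a2 (g8768), an activator of steroidogenic genes, at 18.1 CPM in matured, 3.16 in silver and 1.804 in yellow ovary. Its paralogue nr5a1 had 0 reads in every library. A nuclear receptor that the list missed, hnf4g (g2132), was also lower, at 3.96 CPM in matured, 34.7 in silver and 19.4 in yellow ovary. The row hnf4g was chosen after its values were seen. Of 8 tested receptors of peptide hormones and progestins at the cell surface 0 were called. The membrane progestin receptor mprga (g15293), through which progestins trigger fish oocytes, stood at 17.5 CPM in matured, 47.1 in silver and 28.98 in yellow ovary, a log2 ratio of -1.38. The follicle-stimulating hormone receptor fshr (g10501) had 1.76 CPM in the matured and 0.689 CPM in the silver library and was under the minimum for a call. Granulosa and theca markers summed to 598 CPM in the matured, 156 in the silver and 134 in the yellow library, of which cp17a made up 423 CPM in the matured, 47.4 in the silver and 5.30 in the yellow library. The 3 called rows among these 20 marker rows were those of cp17a, and the part of cell numbers was not tested.

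Most called collagen genes were higher in the matured ovary. Of 18 tested collagen chains 10 were higher and 2 lower, with a median log2 ratio of 1.44 over 36 members, beside -0.02 for all rows. Beyond the type I chains, the largest levels belonged to type VI and type V collagens, which form beaded filaments and the cores of type I fibrils. The type VI chains co6a1 (g8368), co6a2 (g8369) and co6a3 (g7207) stood at 28.2 CPM in matured and 4.98 in silver ovary, at 30.2 CPM in matured and 3.53 in silver ovary and at 61.2 CPM in matured and 10.1 in silver ovary. The type V chains co5a1 (g1516) and co5a2 (g21598) were 10.4-fold (95% interval 8.43 to 12.9) and 6.15-fold higher (5.15 to 7.38). Of the type IV chains of basement membranes, co4a3 (g26614) was at 19.7 CPM in matured and 1.91 in silver ovary, while co4a1 (g936) was not called, with a log2 ratio of 0.56. Against the rest, coea1 (g2327) and another row named co6a1 (g6965) were lower, at 1.503 CPM in matured and 23.5 in silver ovary and at 1.79 CPM in matured and 24.8 in silver ovary. In the yellow ovary both stood near the matured level, at 0.564 and 1.17 CPM. The chains g7207, g8368, g8369, g21598, g26614 and g936 were chosen after their values were seen.

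Among genes that act on or beside collagen, single members were called in both directions. Of 18 tested matrix proteases and inhibitors 1 was higher and 1 lower, with a median of 0.59. The collagen chaperone serph (g8694), also called Hsp47, stood at 20.6 CPM in matured and 2.41 in silver ovary, and the prolyl hydroxylase subunit p4ha1 (g4460), which stabilises the triple helix, at 20.8 CPM in matured and 4.35 in silver ovary. Of 24 tested proteoglycans, laminins and matrix glycoproteins in the list 6 were higher and 2 lower, with a median of 0.94. They included sparc, sprc (g763), a collagen-binding protein of remodelling tissue, at 281 CPM in matured, 40.2 in silver and 21.1 in yellow ovary, decorin pgs2 (g8899), at 11.8 CPM in matured and 2.04 in silver ovary, and thrombospondin tsp1 (g1692), at 31.6 CPM in matured and 2.94 in silver ovary. The matricellular growth regulators ctgf (g3764) and cyr61 (g4725), targets of mechanical and transforming growth factor signals, stood at 47.7 CPM in matured, 7.795 in silver and 4.51 in yellow ovary and at 23.5 CPM in matured, 3.39 in silver and 1.73 in yellow ovary. The serine protease htra1 (g7974) was 5.86-fold higher (95% interval 5.41 to 6.35), and the joint lubricant prg4 (g6564) had 14.6 CPM in the matured and 0.05303 CPM in the silver library. Lower were versican cspg2 (g12271), at 3.84 CPM in matured and 20.9 in silver ovary, and the unnamed tenascin-like row g28953, at 0.0578 CPM in matured and 19.3 in silver ovary. Among 150 tested rows annotated to the extracellular matrix or collagen 18% were higher and 9.33% lower. The genes serph, p4ha1, ctgf, cyr61, htra1 and prg4 were chosen after their values were seen.

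Contractile genes of smooth muscle were higher in their called members. Of 23 tested smooth muscle contractile genes 6 were higher and 0 lower, with a median of 0.63. Smooth muscle myosin myh11 (g2226) stood at 20.6 CPM in matured, 2.09 in silver and 1.47 in yellow ovary, the regulatory light chain myl9 (g18465) at 18.6 CPM in matured and 3.53 in silver ovary and transgelin tagl (g17080) at 95.4 CPM in matured and 22.7 in silver ovary. Desmin desm (g18044), the intermediate filament of muscle, had 14.8 CPM in the matured, 0.159 in the silver and 0 in the yellow library. The tropomyosins and calponins of the list were not called, and cnn1 (g14833) was level, at 4.36 CPM in matured and 4.16 in silver ovary. Smooth muscle markers summed to 231 CPM in the matured, 38.3 in the silver and 36.7 in the yellow library, while skeletal muscle markers summed to 98.6 CPM in the matured, 67.8 in the silver and 102 in the yellow library. The share of muscle cells in the tissue was not tested.

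The keratins of simple epithelia were higher and one of stratified type lower. Keratin 8 and keratin 18, which pair into filaments, were called in 2 of 3 tested rows each, and k2c8 (g6910) stood at 162 CPM in matured, 30.8 in silver and 39.99 in yellow ovary and k1c18 (g5911) at 198 CPM in matured, 32.6 in silver and 20.5 in yellow ovary. Keratin 13, k1c13 (g11446), was at 22.9 CPM in matured, 118 in silver and 20.1 in yellow ovary. Of 47 tested claudins, cadherins and gap junction proteins 7 were higher and 1 lower, with a median of 0.15. Desmoplakin desp (g14248), which anchors keratins at desmosomes, stood at 34.2 CPM in matured and 4.75 in silver ovary, the connexin cx33 (g20584) at 73.9 CPM in matured and 9.49 in silver ovary and cadherin-6, cadh6 (g6037), at 11.6 CPM in matured and 0.663 in silver ovary. Claudins cld3 (g3883) and cld11 (g13858) were 5.16-fold (95% interval 4.300 to 6.24) and 4.74-fold higher (4.17 to 5.395). In the opposite direction, the claudin-like row cldy (g5749) and cadherin-1, cadh1 (g3555), the most abundant of their kinds, stood at 1397 CPM in matured and 5288 in silver ovary and at 304 CPM in matured and 823 in silver ovary, within 4-fold. The summed level of epithelial markers therefore ran opposite to the keratins, at 2565 CPM in the matured and 6651 CPM in the silver library, with cldy as its largest part.

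Actin-remodelling genes, a list chosen after values were seen, had 5 of 33 tested members higher and 0 lower. Their median of 0.05 becomes 0.38 with library totals, beside 0.27 for all rows. Profilin prof1 (g12176), which feeds actin to growing filaments, stood at 95.3 CPM in matured, 11.1 in silver and 3.53 in yellow ovary, gelsolin gels (g6842), which severs them, at 69.3 CPM in matured, 9.39 in silver and 2.97 in yellow ovary, and the Arp2/3 subunit arc1b (g10069) at 26.99 CPM in matured, 3.21 in silver and 0.752 in yellow ovary. These isoforms were low in both the silver and yellow ovary.

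Phagocyte genes had the highest median of any list with more than 10 tested members. Of 22 tested phagocyte and lysozyme genes 11 were higher and 0 lower, with a median log2 ratio of 1.64, and 28 of the 31 members with at least 1 CPM lay above 0. Lysozyme rows lyg (g11846) and lysc (g26875), which cleave bacterial walls, stood at 50.9 CPM in matured, 8.62 in silver and 2.03 in yellow ovary and at 31.1 CPM in matured, 6.95 in silver and 0.413 in yellow ovary. A second goose-type lysozyme, lyg (g4949), was level, at 71.5 CPM in matured, 65.7 in silver and 48.1 in yellow ovary. The macrophage pore protein mpeg1 (g27768) had 12.1 CPM in the matured, 1.94 in the silver and 0.0752 in the yellow library. The actin-capping protein of macrophages capg (g3695) was 12.7-fold higher (95% interval 8.901 to 18.7).

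Outside that list, 7 genes known from leukocytes were picked from among the higher rows, so their direction was given by the choice. Integrin alpha-M itam (g10214), the chain of the phagocyte complement receptor, stood at 40.2 CPM in matured, 6.05 in silver and 0.789 in yellow ovary, the myeloid transcription factor spi1 (g13044), also called PU.1, at 15.3 CPM in matured, 1.33 in silver and 0.489 in yellow ovary, and the leukocyte phosphatase ptprc (g6670), or CD45, at 13.3 CPM in matured, 2.23 in silver and 1.13 in yellow ovary. The macrophage factor mafb had 2 higher rows, g7758 at 24.01 CPM in matured and 1.67 in silver ovary and g6942 at 32.3 CPM in matured and 4.85 in silver ovary. The endocytic receptor ly75 (g5883) of dendritic cells, the adaptor lcp2 (g21702) and the leukocyte GTPase rac2 (g12291) were 13.2-fold (95% interval 10.7 to 16.5), 56.4-fold (28.4 to 132) and 6.99-fold higher (5.397 to 9.19). The silver level lay below the matured one by that choice. The yellow level lay below the matured one in each of these rows too, but picking rows high in the matured library favours that as well. Phagocyte markers summed to 302 CPM in the matured, 114 in the silver and 131 in the yellow library, and globins, which mark blood, to 40.9 CPM in the matured, 28.8 in the silver and 11.5 in the yellow library, so the globin level was not even between the libraries. Its part in the leukocyte values was not tested.

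Antibody genes were called in both directions, and complement genes were higher where called. Of 6 tested immunoglobulin rows 4 were higher and 1 lower. The kappa light chain igkc (g39609) stood at 89.7 CPM in matured, 11.5 in silver and 2.29 in yellow ovary, and the lambda chain lac6 (g23965) at 11.6 CPM in matured, 0.186 in silver and 0.263 in yellow ovary. Against these the heavy chain hvm63 (g20855), one of the 12 lowest named rows, stood at 0.636 CPM in matured, 39.5 in silver and 24.1 in yellow ovary. The T cell chains of CD3 were level at 11.6 CPM in the matured, 12.5 in the silver and 10.7 in the yellow library. The 2 rows of complement C3, the central component of the cascade, co3 (g14949) and co3 (g14950), stood at 96.2 CPM in matured, 14.5 in silver and 16.4 in yellow ovary and at 66.3 CPM in matured, 10.2 in silver and 16.7 in yellow ovary, and the protease inhibitor a2mg (g3378) at 325 CPM in matured, 55.3 in silver and 30.6 in yellow ovary. Of 16 tested complement and plasma proteins 5 were higher and 0 lower, with a median of 0.38. In antigen presentation, beta-2-microglobulin b2mg (g20315), the light chain of MHC class I, stood at 167 CPM in matured, 40.2 in silver and 15.1 in yellow ovary, the unnamed MHC class II row g19476 at 75.5 CPM in matured and 13.02 in silver ovary, and the immunoproteasome subunit psb8 (g24995) at 11.4 CPM in matured and 1.94 in silver ovary. Against these, the antigen-presenting glycoprotein cd1d (g39086) was lower, at 1.42 CPM in matured and 16.7 in silver ovary. The endoplasmic reticulum aminopeptidase erap2 (g4884) was lower too, at 3.93 CPM in matured and 54.9 in silver ovary. Both cd1d and erap2 were chosen after their values were seen. Of 10 tested T cell and MHC genes 2 (20%) were higher and 0 lower. The list's members averaging 1 CPM or more number 39, at a median level of 3.40 CPM. Low members were tested only if 1 library reached 10 CPM, so the share is not set beside that of all rows. Toll-like receptor 7, tlr7 (g12765), which senses RNA, was 7.62-fold higher (95% interval 6.78 to 8.59), at 65.1 CPM in matured and 8.54 in silver ovary.

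Cytokine, interferon-induced and lectin genes were called in both directions, and most outside the lectins were not called. Of 60 tested chemokine, interleukin and Toll-like receptor genes, interferon-induced genes included, 3 were higher and 8 lower, around a median of 0.02 that lies on either side of 0 and of all rows by scaling. The interferon-inducible GTPases iigp5 (g25246 and g25978) and ifi44 (g39396) were lower, at 3.61 CPM in matured and 36.7 in silver ovary, 2.34 CPM in matured and 30.5 in silver ovary and 7.63 CPM in matured and 62.2 in silver ovary. A related row, if44l (g26148), was higher, at 106 CPM in matured, 6.496 in silver and 95.2 in yellow ovary, where the silver library is the one that stands apart. The feedback inhibitors socs1 (g5447), of cytokine receptors, and ikba (g5146), of NF-kappa-B, stood at 13.3 CPM in matured, 91.6 in silver and 10.4 in yellow ovary and at 23.3 CPM in matured, 147 in silver and 41.7 in yellow ovary, both chosen after their values were seen. Of 14 tested lectins 3 (21.4%) were higher and 5 (35.7%) lower, against 2.23% and 4.61% of all tested rows. The eel lectins ajl2 (g45747) and ajl1 (g20161), sugar-binding proteins first named in Japanese eel, were at 98.05 CPM in matured, 474 in silver and 122 in yellow ovary and at 2.37 CPM in matured, 19.8 in silver and 5.64 in yellow ovary, while galectin-4, leg4 (g27756), had 13.6 CPM in the matured library and 0 reads in the silver library, at least 171-fold higher when 3 counts are taken as the floor. The dual oxidase partner doxa1 (g2851), needed for peroxide release at epithelia, stood at 10.8 CPM in matured, 242 in silver and 29.4 in yellow ovary, and butyrophilin-like btnl2 (g11975), a regulator of T cells, at 1.33 CPM in matured, 44.7 in silver and 6.803 in yellow ovary.

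**Figure D4:**
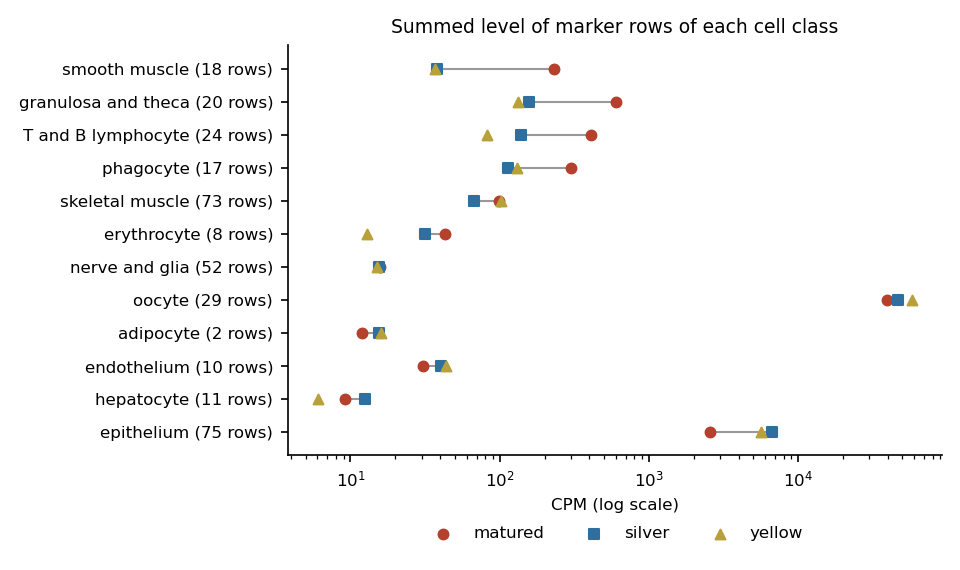
Summed level (CPM, log scale) of the marker rows of 12 cell classes in the matured (circle), silver (square) and yellow (triangle) library, from the class with the largest ratio of matured over silver at the top. Smooth muscle, granulosa and theca, lymphocyte and phagocyte markers lie higher in the matured library, oocyte markers are 39159 CPM in the matured against 47031 CPM in the silver library, and epithelial markers are 2565 CPM against 6651 CPM.

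A few genes of oocyte maturation, the egg coat and the germ line were lower, and most were not called. The shares lower were 8.82% of the tested maturation, 5.26% of the egg coat and 9.09% of the germ line list. Over all tested rows the share was 4.61%, which the egg coat share is near. Of 34 tested oocyte maturation and M-phase genes 0 were higher and 3 lower, with a median of -0.44. Cyclin B1, which activates the maturation-promoting kinase, had its abundant row ccnb1 (g2311) at 1709 CPM in matured, 5664 in silver and 6475 in yellow ovary, a log2 ratio of -1.73, and a second row ccnb1 (g7108) level at 457 CPM in matured, 375 in silver and 762 in yellow ovary. The checkpoint protein md2l2 (g19378) stood at 24.5 CPM in matured, 138 in silver and 79.8 in yellow ovary. Of the egg coat genes 0 of 19 tested were higher and 1 lower, with a median of -0.28. That median becomes 0.05 with library totals, beside 0.27 for all rows. With the median over abundance subtracted it becomes 0.26, beside 0 for all rows. The rows zp2 (g45297) and the leading zp3 (g36576) were near level, at 10033 CPM in matured and 11352 in silver ovary and at 10099.5 CPM in matured and 9209.6 in silver ovary. Of 22 tested germ line RNA regulators 0 were higher and 2 lower. Their median of -0.15 becomes 0.09 with library totals, beside 0.27 for all rows. The RNA-binding germ line factor nano1 (g8160) was called lower, at 11.96 CPM in matured, 62.4 in silver and 15.3 in yellow ovary. Another, dazl (g17322), was not called, at 34.7 CPM in matured, 128 in silver and 69.3 in yellow ovary, within 4-fold. The helicase ddx4 (g14613), or vasa, was level, at 75.9 CPM in matured, 74.00 in silver and 66.3 in yellow ovary.

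Kinetochore and centromere proteins, a list chosen after values were seen, had 0 of 37 tested members higher and 10 lower, with a median of -0.75. Borealin-2, bore2 (g2039), of the complex that corrects chromosome attachment, stood at 268 CPM in matured, 1736 in silver and 706 in yellow ovary. The kinetochore subunits ska2 (g17382), spc25 (g9092), mis12 (g23677) and the centromere proteins cenpn (g6785) and cenpp (g2260) were 5.502-fold (95% interval 5.300 to 5.71), 4.403-fold (4.27 to 4.55), 4.87-fold (4.57 to 5.19), 5.63-fold (5.21 to 6.09) and 6.84-fold lower (6.14 to 7.63). The silver library was the highest of the 3 in each. Members of the list differed in size and direction. The partner of spc25, ndc80 (g13568), was lower within 4-fold, at 221 CPM in matured and 511 in silver ovary. Another member, kntc1 (g12420), ran the other way, at 45.02 CPM in matured and 19.8 in silver ovary. The cytokinesis genes ki20a (g3050), a kinesin, and prc1 (g3811), which bundles spindle microtubules, stood at 593 CPM in matured, 2658 in silver and 1630.4 in yellow ovary and at 103 CPM in matured, 785 in silver and 378 in yellow ovary, and pttg (g8294), described as a protein that interacts with the product of pituitary tumor-transforming gene 1, at 30.98 CPM in matured, 147 in silver and 27.6 in yellow ovary. In the list of kinesins, dyneins and tubulins as a whole 0 of 127 tested genes were higher and 6 (4.72%) lower, with a median of 0.06. That share is near the 4.61% of all tested rows. The rows spc25, mis12, cenpn, ndc80, kntc1, prc1 and pttg were chosen after their values were seen.

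Histones had the lowest median of all the lists, at -0.99 over 53 members. Of 30 tested 0 were higher and 7 (23.3%) lower, against 4.61% lower among all tested rows. The core histones h4 (g8213) and h2b (g704) stood at 4.42 CPM in matured, 41.6 in silver and 8.12 in yellow ovary and at 5.32 CPM in matured, 40.5 in silver and 12.9 in yellow ovary, and the variant h2az (g17105), which marks promoters, at 189 CPM in matured, 855 in silver and 311 in yellow ovary. One histone H3.3 row was level, h33 (g21782), at 215 CPM in matured, 204 in silver and 156 in yellow ovary. The linker histone of non-dividing body cells, h10 (g2996), was the only tested member with a log2 ratio over 1, at 17.9 CPM in matured, 5.89 in silver and 2.18 in yellow ovary.

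DNA replication genes were seldom called, and nucleotide supply enzymes were called lower more often than all rows. The shares lower were 2.90% of the tested replication and 17.6% of the supply list, against 4.61% of all tested rows. Of 69 tested replication genes 0 were higher and 2 lower, with a median of 0.14, and the sliding clamp pcna (g7408) stood at 575 CPM in matured, 315 in silver and 422 in yellow ovary. The 2 lower ones were orc6 (g8026), of the origin recognition complex, at 31.2 CPM in matured, 379 in silver and 61.3 in yellow ovary, and geminin gemi (g32796), the inhibitor of origin licensing, at 97.9 CPM in matured, 688 in silver and 424 in yellow ovary. Of 34 tested nucleotide supply and salvage enzymes 1 was higher and 6 lower, with a median of -0.28. That median becomes 0.05 with library totals, beside 0.27 for all rows. With the median over abundance subtracted it becomes -0.14, beside 0 for all rows. The salvage enzymes hprt (g3310), for purines, and kitm (g3546), for thymidine, were 11.7-fold (95% interval 10.4 to 13.2) and 19.8-fold lower (15.8 to 25.1). Adenosine deaminase ada (g5908) was the exception, at 22.3 CPM in matured, 4.19 in silver and 1.92 in yellow ovary. The dNTP hydrolase row samh1 (g28115) had 0 reads in the matured and in the yellow library and 19.99 CPM in the silver library, at least 231-fold lower. Uracil-DNA glycosylase, a repair enzyme, had 2 lower rows out of 3 tested, ung (g40663) at 16.2 CPM in matured and 99.8 in silver ovary and ung (g22999) at 47.1 CPM in matured and 204 in silver ovary, both chosen after their values were seen.

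Genes of transcription, RNA and protein turnover were lower at single members. The 4 lists of this paragraph were chosen after values were seen. Of 181 tested zinc finger proteins known by a number, most of them presumed transcription factors, 2 were higher and 17 lower, with a median of -0.41. The rows zn271 (g12141) and znf84 (g20193) stood at 1.99 CPM in matured, 38.3 in silver and 1.05 in yellow ovary and at 2.601 CPM in matured, 37.5 in silver and 1.804 in yellow ovary, where the silver ovary was high against both others, and zn648 (g8717) at 72.8 CPM in matured, 5.197 in silver and 1.35 in yellow ovary, where the matured ovary was. Of 47 tested ubiquitin-conjugating enzymes and SUMO modifiers 0 were higher and 7 lower. Their median of -0.28 becomes 0.04 with library totals, beside 0.27 for all rows. The modifier sumo2 (g17307) stood at 55.9 CPM in matured, 485 in silver and 182 in yellow ovary and ube2w (g6069), which attaches ubiquitin at N-termini, at 23.5 CPM in matured, 304 in silver and 24.7 in yellow ovary. RNA polymerase subunits had 0 of 33 higher and 3 lower, with rpa12 (g27264) of polymerase I at 36.6 CPM in matured and 203 in silver ovary, while rpb2 (g14126), the second largest subunit of polymerase II, was at 149 CPM in matured and 50.6 in silver ovary, within 4-fold in the other direction. Ribosome biogenesis factors had 0 of 41 higher and 3 lower, and brx1 (g6549), of large subunit assembly, stood at 185 CPM in matured and 861 in silver ovary. The shares lower were 9.39% of the zinc finger, 14.9% of the ubiquitin-conjugating, 9.09% of the polymerase and 7.32% of the biogenesis list. Over all tested rows the share was 4.61%. With the median over abundance subtracted, the list medians become -0.32, -0.07, -0.13 and -0.07 in that order, beside 0 for all rows.

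Few genes of the finished machines of protein synthesis and breakdown were called. Of 123 tested cytosolic ribosomal proteins 2 were higher and 0 lower, with a median of 0.16. With the median over abundance subtracted, that of these ribosomal proteins becomes 0.75, beside 0 for all rows. Of 82 translation initiation factors 0 were higher and 3 (3.66%) lower, and 2 of the lower rows carry the name of the helicase if4a2 (g1038, at 6.79 CPM in matured and 62.3 in silver ovary, and g1039, at 2.17 CPM in matured and 28.8 in silver ovary). Rows named if4a2 that were tested numbered 4. Of 71 proteasome genes 2 (2.82%) were higher and 1 (1.41%) lower. Over all tested rows 2.23% were higher and 4.61% lower. The deadenylase parn (g899), which shortens poly(A) tails in oocytes of frogs, was lower, at 159 CPM in matured, 834 in silver and 336 in yellow ovary, and so was gtsf1 (g4158), a germ line factor of piRNA silencing, at 175 CPM in matured, 1020.4 in silver and 1302 in yellow ovary. Both were chosen after their values were seen. In the endoplasmic reticulum, ero1a (g7071), which oxidises new disulphides, and manf (g1559), a secreted stress factor, stood at 38.3 CPM in matured and 178 in silver ovary and at 16.6 CPM in matured and 133 in silver ovary, also chosen so, while the stress transcription factor atf4 had 2 higher rows out of 4 tested, g12746 at 60.8 CPM in matured, 13.1 in silver and 46.7 in yellow ovary and g42173 at 64.1 CPM in matured, 14.2 in silver and 57.1 in yellow ovary, in which the silver library was the low one.

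Enzymes of glycolysis were called about as often as all rows, and single isoforms differed. Of 45 tested glycolytic and gluconeogenic enzymes 1 (2.22%) was higher and 2 (4.44%) lower, with a median of 0.49. Over all tested rows the shares were 2.23% and 4.61%. Aldolase A, aldoa (g21958), the common form, stood at 109 CPM in matured, 25.2 in silver and 33.4 in yellow ovary, and aldolase C, aldoc (g6049), the form of nervous tissue in mammals, at 1.47 CPM in matured, 18.03 in silver and 0.263 in yellow ovary. The glucokinase regulator gckr (g10120) was at 7.95 CPM in matured, 44.9 in silver and 219 in yellow ovary. Pyruvate dehydrogenase phosphatase, which switches pyruvate oxidation on, had 3 lower rows named pdp2 out of 4 tested, g43954 at 6.88 CPM in matured and 76.3 in silver ovary, g25236 at 10.6 CPM in matured and 78.7 in silver ovary and g37955 at 1.97 CPM in matured and 24.2 in silver ovary, chosen after their values were seen. Of 72 tested antioxidant and detoxifying enzymes 0 were higher and 4 (5.56%) lower. That share is near the one of all tested rows. The list's median of -0.20 becomes 0.09 with library totals, beside 0.27 for all rows. Thioredoxin thio (g16268) was among the lower ones, at 17.1 CPM in matured, 106 in silver and 41.1 in yellow ovary. Selenoprotein P, sepp1 (g17770), the selenium carrier, was higher, at 519 CPM in matured, 109 in silver and 103 in yellow ovary, and chosen after its values were seen.

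Of 127 tested solute carriers 6 were higher and 6 lower, which is 4.72% each way. Over all tested rows the shares were 2.23% higher and 4.61% lower, so the share of lower carriers is near that of all rows. The list's median of -0.07 becomes 0.25 with library totals, beside 0.27 for all rows. The higher ones included the prostaglandin transporter so2a1 (g7353), at 18.99 CPM in matured, 1.94 in silver and 0.301 in yellow ovary, the bicarbonate transporter-like s4a11 (g24257), at 33.6 CPM in matured, 3.34 in silver and 2.74 in yellow ovary, the amino acid carrier lat4 (g6060), at 20.3 CPM in matured and 2.47 in silver ovary, and the taurine carrier sc6a6 (g11129), at 18.9 CPM in matured and 2.598 in silver ovary. The lower ones included the anion exchanger s26a6 (g15759), at 3.12 CPM in matured and 21.03 in silver ovary, the zinc carrier s39a3 (g5322), at 8.698 CPM in matured and 49.4 in silver ovary, and the lysosomal sialic acid exporter s17a5 (g7369), at 10.5 CPM in matured and 53.9 in silver ovary. Among aquaporins, the water channels that hydrate fish eggs, aqp1 was higher and aqp3 (g6804) lower, at 7.05 CPM in matured, 34.5 in silver and 7.52 in yellow ovary. The sodium pump subunit at1a1 (g17727) was lower, at 43.9 CPM in matured and 194 in silver ovary, but under 50% of its reads aligned uniquely in at least 1 library, so its level is uncertain. The folate receptor folr1 (g3362) stood at 63.5 CPM in matured, 3.13 in silver and 1.203 in yellow ovary, 20.3-fold higher (95% interval 16.9 to 24.6). Of 29 vacuolar proton pump subunits 0 were higher and 2 (6.90%) lower, against 4.61% lower among all tested rows.

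Prostaglandins take part in ovulation of fishes, and the called genes of their synthesis and reception were lower in the matured ovary. Of 21 tested prostaglandin genes in the list 0 were higher and 5 (23.8%) lower, against 4.61% lower among all tested rows. The median was -0.82, with 17 of 40 members above 0 and the highest at 1.99, just under the call. The prostaglandin transporter so2a1, given above among the solute carriers, is outside this list and was higher. Prostaglandin E synthase ptges (g731) stood at 59.7 CPM in matured, 305 in silver and 56.5 in yellow ovary, and 5-lipoxygenase lox5 (g17581), of the leukotriene branch, at 1.21 CPM in matured, 30.1 in silver and 8.64 in yellow ovary. In ptges the matured and yellow levels were alike and the silver level stood apart. The other synthase, pges2 (g8257), was not called, at 54.6 CPM in matured, 40.4 in silver and 16.7 in yellow ovary.

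Cell death genes were lower in their called members. Of 31 tested caspases and BCL2 family genes 0 were higher and 5 (16.1%) lower, with a median of -0.32. Over all tested rows 4.61% were lower. The death agonist bid (g15808) stood at 20.6 CPM in matured, 99.3 in silver and 25.3 in yellow ovary, survivin birc5 (g15276), an inhibitor of apoptosis that also serves the spindle, at 7.66 CPM in matured, 38.5 in silver and 22.2 in yellow ovary, and bax (g3504), which opens the mitochondrial membrane, at 16.8 CPM in matured, 51.1 in silver and 17.6 in yellow ovary, within 4-fold. The gene bax was chosen after its values were seen. Of 15 tested cathepsins, the proteases of lysosomes, 1 was higher and 0 lower, cath (g2556), at 22.9 CPM in matured, 2.41 in silver and 1.47 in yellow ovary.

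Signalling and transcription factors were called one gene at a time. Of 29 tested BMP, activin and TGF-beta genes 3 (10.3%) were higher and 0 lower, with a median of 0.31. Over all tested rows 2.23% were higher and 4.61% lower. The BMP antagonist noggin-2, nogg2 (g22318), stood at 93.3 CPM in matured, 11.8 in silver and 2.33 in yellow ovary, and the latent TGF-beta carrier ltbp3 (g9675) at 12.3 CPM in matured, 1.88 in silver and 3.57 in yellow ovary. The BMP target id1 had 2 lower rows, g20038 at 48.9 CPM in matured, 692 in silver and 117 in yellow ovary and g5955 at 15.4 CPM in matured, 126 in silver and 67.02 in yellow ovary, and the Nodal coreceptor cfc1 (g5186) was at 22.02 CPM in matured, 232 in silver and 40.2 in yellow ovary; these were chosen after their values were seen. In the WNT pathway 0 of 21 tested genes were higher and 3 (14.3%) lower, and wn11b (g1509), the frog Wnt11b of maternal axis formation, stood at 0.231 CPM in matured, 11.3 in silver and 0.864 in yellow ovary, a 49.1-fold difference (95% interval 24.7 to 114). In the Notch pathway the ligand dll4 (g3978) was at 19.5 CPM in matured, 106 in silver and 44.5 in yellow ovary. The EGF receptor ligand btc (g14739), of a family that relays luteinizing hormone signals in the follicle of mammals, stood at 12.3 CPM in matured, 1.38 in silver and 15.7 in yellow ovary, and fgf10 (g22419) at 9.45 CPM in matured, 72.3 in silver and 25.1 in yellow ovary.

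Immediate early genes, which respond within minutes to stimuli, had 3 of 16 listed and tested members higher (18.75%) and 0 lower. They were fos (g3322), at 24.7 CPM in matured, 3.98 in silver and 2.89 in yellow ovary, atf3 (g11964), at 29.1 CPM in matured, 3.74 in silver and 4.36 in yellow ovary, and egr1 (g24714), at 10.9 CPM in matured, 0.6098 in silver and 0.489 in yellow ovary. In these 3 the silver and yellow ovaries were both low. Over all tested rows 2.23% were higher. Outside the list, ier5l (g11110), described as an immediate early response gene 5-like protein, was lower. It stood at 2.49 CPM in matured and 13.4 in silver ovary and was chosen after its values were seen. Of the developmental factors, tbx2 (g17765) and nkx25 (g16418) were 12.97-fold (95% interval 9.38 to 18.4) and 8.11-fold higher (6.096 to 10.99), and sox11 (g7012), sx19a (g1730) and hhex (g9548) 9.56-fold (8.86 to 10.3), 4.46-fold (4.18 to 4.76) and 4.63-fold lower (4.15 to 5.18). The ETS factor etv4 (g6392) stood at 51.03 CPM in matured, 2.97 in silver and 12.4 in yellow ovary and the growth factor pleiotrophin ptn (g6750) at 58.98 CPM in matured, 5.36 in silver and 1.13 in yellow ovary, while the homeobox gene irx1 had 2 lower rows, g9099 at 2.05 CPM in matured, 32.5 in silver and 49.4 in yellow ovary and g9525 at 1.79 CPM in matured, 21.1 in silver and 8.27 in yellow ovary, all chosen after their values were seen. Gamma-crystallins, the eye lens proteins, had 3 of 3 tested rows higher, crgm2 (g4921) at 48.2 CPM in matured, 1.94 in silver and 0.489 in yellow ovary, crgm3 (g19867) at 27.1 CPM in matured, 2.39 in silver and 7.55 in yellow ovary and crgm3 (g4920) at 10.98 CPM in matured, 1.14 in silver and 4.36 in yellow ovary, a list chosen after values were seen. Of the 13 rows that matched, these 3 passed the 10 CPM filter through the matured library alone.

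**Figure D5:**
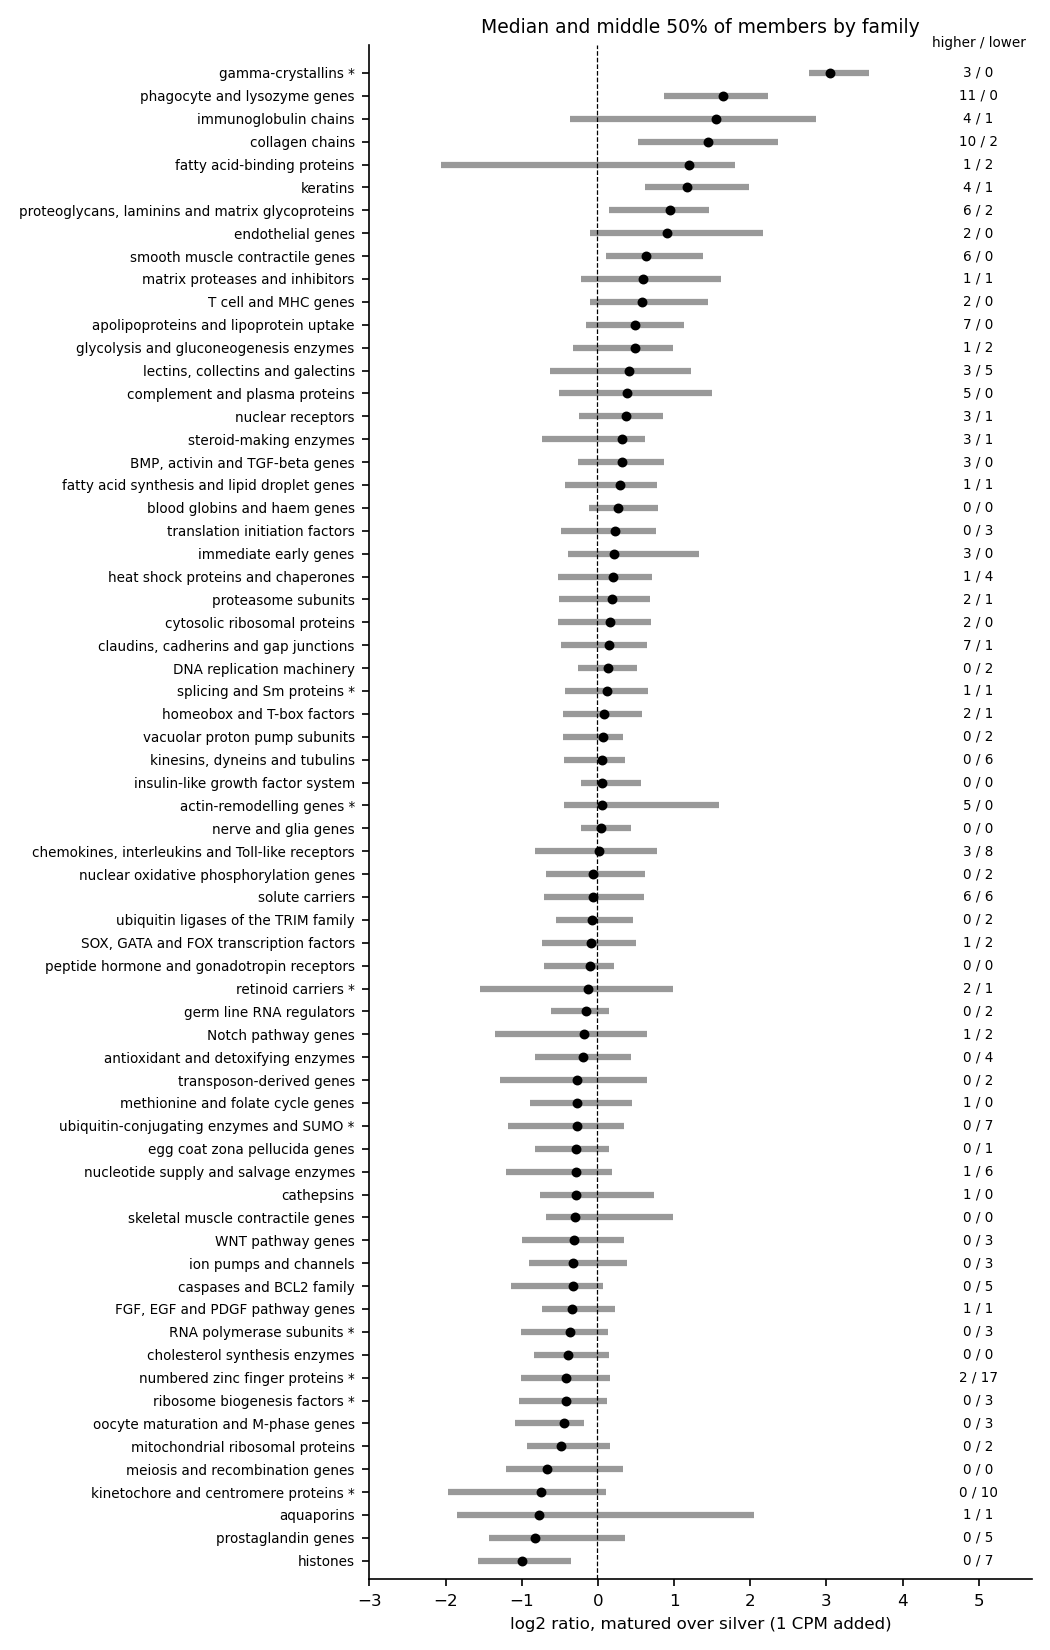
Median (point) and middle 50% (bar) of the log2 ratio of matured over silver ovary for 66 gene lists, over members that average 1 CPM or more, with the numbers of tested members called higher and lower at the right and the median of all rows as a dashed line at -0.02. Lists with an asterisk were chosen after values were seen. Phagocyte genes and collagens lie at 1.64 and 1.44 and histones at -0.99, and with other scalings 20 of the 66 medians change sign, though only 3 change side of the median of all rows.

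Rows without a name were called more often than named ones. Of 1414 tested rows without a name 3.75% were higher and 7.64% lower, against 2.04% and 4.22% of 11159 named rows. Beyond the abundant ones above, g17510 had 37.2 CPM in the matured library and 0 reads in the silver library, at least 468-fold higher, with 4.06 CPM in the yellow library. Likewise g22649 stood at 27.4 CPM in matured, 0.186 in silver and 0.0752 in yellow ovary. On the other side g21786, at 0.116 CPM in matured, 39.9 in silver and 4.21 in yellow ovary, and g1017, at 1.01 CPM in matured, 68.4 in silver and 1.203 in yellow ovary, were 345-fold (95% interval 135 to 1269) and 67.6-fold lower (48.5 to 97.3), and both were high in the silver ovary only among these 3 libraries. These 4 rows were chosen after their values were seen. Of the named rows, the retrovirus-like pol4 (g18574) showed the same shape, at 0.289 CPM in matured, 70.2 in silver and 0.902 in yellow ovary, and so did uckl1 (g8305), at 0.2601 CPM in matured, 35.6 in silver and 0.188 in yellow ovary. Of 12 tested transposon-derived rows 0 were higher and 2 (16.7%) lower, against 4.61% lower among all tested rows. Seen by name, 49 of 2183 names with at least 2 tested rows had 2 or more rows called the same way, and 2 names, abca1 and co6a1, had rows called both ways.

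Lists with no called member included meiosis and recombination genes, at a median of -0.67 over 16 members, the insulin-like growth factor system, at 0.05, and nerve and glia genes, at 0.04, a median that becomes 0.00 with DESeq2 size factors. Of 38926 rows with an adjusted p-value in the authors' deposited table, 93 stood under 0.1, of which 44 (0.113%) were higher and 49 (0.126%) lower in the matured eel. Of those rows of the authors' deposited table, 63 (67.7%) were also called here, or 7.33% of the 860 calls. Among genes not given above, the authors' deposited table has the matrix protease mmp9 and the stress factor klf4 among its higher rows, both with 0 reads in the silver library and under 10 CPM in the matured one.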

How the data were processed

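Ovary RNA of 3 eels was sequenced, 1 library a stage, and 3 gonad parts were pooled per eel. Gene models came from Augustus and names from Blast2GO, and CLC bio software did the alignment and counting, per the file headers. Further tools appear in the submitters' processing notes without role or order: DESeq, HTSeq, SAMtools 0.1.18, TopHat2 2.0.5 and CASAVA. For the genome build nothing is given in the sources used here, and no sequence was used.

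The counts used are the corrected totals deposited by the authors, in which reads with several alignments are distributed per the file headers. Their counts of uniquely aligned reads served as an alternative, with unique alignments at 98.2% of the reads of the matured library and 98.2% of those of the silver library. The RPKM values are, per the file headers, these counts over library total and the length of the longest transcript. A fold (the ratio of spawned over silver), its log2 value and its p-value, all from DESeq, were deposited by the authors, with the variance taken across the 3 libraries. The fraction of similar residues in each protein match was deposited by the authors and not used. Lines without a gene identifier, 2 in number, were left out.

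Counts were scaled with TMM factors over the 3 libraries (matured 1.15, silver 0.910, yellow 0.957) from edgeR 4.0.16 in R 4.3.3. The log2 ratio was taken after adding 1 CPM, which shrinks the ratios of low rows. Rows that reached 10 CPM in either library were tested, and called at 4-fold. Folds have exact conditional binomial (Clopper-Pearson) 95% intervals, and a fold against 0 reads is a bound against 3 counts in that library. Because PCR copies molecules, both cover counting error only. The remaining steps used Python 3.11.15 (matplotlib 3.10.9, scipy 1.17.1, pandas 2.3.3, numpy 2.4.6). On simulated Poisson data the steps called 0 of 11327 unchanged genes, 0 of 50 changed 3-fold and all 50 genes changed 6-fold. The simulated libraries held counting error only, without differences between animals, so they give no error rate for the eels.

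The members and all gene lists were chosen with earlier results of these data known. Lists follow words of the deposited descriptions and names, trimmed after names and values were read, and 9 of the 66 were chosen after values were seen. List medians cover members averaging 1 CPM or more, and counts cover tested members. Genes named are the 12 highest and 12 lowest named rows, the 5 most abundant rows per base of the matured and silver libraries, up to 4 members of a list in each direction with the most abundant one, and markers. Other genes are said to be chosen after their values were seen. The alternatives tried were DESeq2 1.42.0 size factors, library totals, TMM over both libraries only, unique reads, RPKM, pseudocounts of 0.1 and 5 CPM, a minimum of 1 CPM or none, a 2-fold threshold, the interval bound and, added after seeing the data, trends over abundance and length subtracted.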

Additional observations from a re-analysis of the deposited data

How the results depend on the processing

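The split of calls between directions depended on scaling and filter. Higher rows made up 32.7% of the calls, against 28.7% with DESeq2 size factors, 29.2% with TMM over both libraries only, 57.6% with library totals, 57.7% with the authors' RPKM, 23.5% with 5 CPM added, 38.2% with a minimum of 1 CPM and likewise with none, and 45% with the abundance trend subtracted. The count of higher rows was 444 with library totals, 433 with RPKM, 100 with 5 CPM added and 1212 at a 2-fold threshold. The count of lower rows was 327, 318, 326 and 2739 under these 4 settings. The median of tested rows, -0.21, was -0.27 with DESeq2 size factors, 0.16 with totals, -0.26 with TMM over both libraries, 0.22 with RPKM, -0.19 with 5 CPM added, 0.0050 with a minimum of 1 CPM and 0.023 with none. Of the 57 lists, 32 had a median above that of all rows, and 29 to 36 did so under the alternatives. The list medians that changed side of all rows were, with scaling, those of chemokines, homeobox factors and transposon-derived genes and, with the abundance trend subtracted, those of egg coat genes, cathepsins, nuclear oxidative phosphorylation and methionine cycle genes. With the length trend subtracted those of SOX, GATA and FOX factors and of nuclear oxidative phosphorylation did so. Over members averaging 10 CPM or more, where the median of all rows is -0.22, 12 of the 66 list medians changed side, among them fatty acid-binding proteins (to -2.06, with 4 tested members), endothelial genes (to -0.81, with 5) and nuclear receptors (to -0.26, with 15), each above all rows over members averaging 1 CPM or more. Of 321 called rows examined by name 0 reversed in 9 settings, and 170 fell under 4-fold in at least 1: 57 with library totals, 83 with RPKM and 120 with 5 CPM added, some of them in several. The cause of these shifts was not tested, other than that library totals move every abundant row by 0.33. No paired analysis was possible because each stage has 1 library. Depth limits rows near the floor, 0.0867 CPM in the matured and 0.0795 CPM in the silver library. The differences are between 2 animals.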
